A study of Mus musculus with 123 samples.

Results

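The genes described here encode intermediate filament proteins and the inner layer of the nuclear envelope. They are desmin (Des), vimentin (Vim), nestin (Nes), synemin (Synm), the simple epithelial keratins Krt8 and Krt18, the lamins Lmna, Lmnb1 and Lmnb2, and the lamin B receptor Lbr. All 10 were found by symbol among the 23337 gene rows of the count table, and they were followed in 112 of the 123 deposited cells, those in which at least 2000 genes had a count. The cells were single GFP+ cells sorted from hearts of αMHC-GFP mice, in which the αMHC (Myh6) promoter drives GFP, and were captured on Fluidigm C1 chips and amplified with the SMART-Seq V4 kit. There were 42 cells from hearts at embryonic day 9.5 (E9.5), 29 from E12.5 and 41 from postnatal day 1 (P1). The embryonic hearts were digested with collagenase and the P1 hearts with Liberase, so digestion and age cannot be told apart. The labels name no animal, litter or chip, so each time point is 1 sample, cells are not replicates, and no p-value is given.

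Intermediate filaments are ropes of coiled-coil proteins. Desmin is the main one of heart muscle, where it ties the Z-discs to each other and to the cell junctions, and synemin co-polymerizes with it. Vimentin is the filament of mesenchymal and endothelial cells, and nestin that of many progenitor cells. Keratins form filaments only as pairs of a type II chain such as Krt8 and a type I chain such as Krt18, and they are best known from simple epithelia and the early embryo. Lamins are the nuclear members of the same family: Lmna makes lamins A and C, which stiffen the nucleus of mechanically loaded cells, while Lmnb1 and Lmnb2 make the B-type lamins. Lbr spans the inner nuclear membrane, where it holds peripheral heterochromatin and B-type lamins.

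The cell titles fall into naming sets by their prefix, and these stand in for the spread within a time point. Set C held 14 of the E9.5 cells, 20 of the E12.5 cells and all 41 P1 cells, set N530 held 28 cells at E9.5, set N523 8 cells at E12.5, and set E12-5b a single cell at E12.5. Total counts per cell ran from 268301 to 588443 in set C at E9.5, from 1437114 to 6351742 in set N530, from 148258 to 738496 in set C at E12.5, from 2953992 to 7711355 in set N523, and from 69522 to 327360 at P1. Levels are means over cells of CPM, the counts scaled to 1000000 per cell, and a ratio between time points is the log2 of these means with the SD over the combinations of naming sets of 6 or more cells. All P1 cells are of set C, so the SD of a P1 ratio holds the spread between embryonic sets only and none within P1. A gene was called higher or lower where the means differed by 2-fold or more and every combination went the same way. Genes under 10 CPM at both time points were not called. A gene is said to be found in a cell at 1 count or more, with an exact (Clopper-Pearson) 95% interval for the share of cells, and pooled CPM carry exact Poisson intervals. Both cover counting error only, since reads carry no molecular identifiers.

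The sort was checked against 18 listed cardiomyocyte genes, whose summed level had medians of 80702, 58265 and 112359 CPM in cells from E9.5, E12.5 and P1 hearts. In 5 cells it lay under 10000 CPM: 3 of set C and 1 of set N530 at E9.5, and 1 at P1. Markers of other cells were sparse: the highest sum in any cell was 7998 CPM for 8 endothelial genes, in the P1 cell just named, 4007 CPM for 8 fibroblast genes and 2695 CPM for 8 epicardial genes, both at E9.5, 636 CPM for 7 macrophage genes, 258 CPM for 7 erythroid genes and 130 CPM for 4 neural crest genes. In time order, the mean sums were 128, 3.44 and 196 CPM for endothelial genes and 162, 47.9 and 2.73 CPM for fibroblast genes. For epicardial genes they were 116, 119 and 33.6 CPM. The 7 genes of the endoderm and other epithelium list (Epcam, Cdh1, Cldn6, Cldn7, Foxa1, Foxa2 and Sox17) were at 0 in every cell. The 4 smooth muscle genes, which early cardiomyocytes also use, had medians of 4373, 2324 and 1110 CPM, with Myh11 at 0 at E12.5 and P1.

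Krt8 and Krt18 were common among E9.5 cells, rare at E12.5 and nearly absent from the P1 counts. Krt8 lies on chromosome 15 at 101996711-102004342 on the minus strand (GRCm38) and Krt18 at 102028216-102032026 on the plus strand, so that the genes point away from each other across 23873 bases in which GENCODE places no protein-coding gene. Des, with which they are compared, lies on chromosome 1 at 75360292-75368579 on the plus strand. The stretches just before the first annotated start of these genes are shown because fewer cells had either keratin after E9.5, while most cells had Des at every time point. They come from the RefSeq promoter table (GRCm38.p6), which matched 9 of the 10 genes. Each is printed 5′ to 3′ on the gene's strand and stops before the outermost start in RefSeq or GENCODE, with capitals for CANNTG, which reads the same on both strands, and for GGGCGG on either strand.
Krt8, chr15:102004483-102004592: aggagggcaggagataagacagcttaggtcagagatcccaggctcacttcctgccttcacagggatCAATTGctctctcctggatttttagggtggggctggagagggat
Krt18, chr15:102027966-102028179: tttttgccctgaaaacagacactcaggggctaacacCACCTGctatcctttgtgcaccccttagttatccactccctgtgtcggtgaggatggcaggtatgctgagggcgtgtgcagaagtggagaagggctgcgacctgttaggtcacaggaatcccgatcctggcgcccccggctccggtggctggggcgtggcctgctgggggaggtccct
Des, chr1:75360042-75360291: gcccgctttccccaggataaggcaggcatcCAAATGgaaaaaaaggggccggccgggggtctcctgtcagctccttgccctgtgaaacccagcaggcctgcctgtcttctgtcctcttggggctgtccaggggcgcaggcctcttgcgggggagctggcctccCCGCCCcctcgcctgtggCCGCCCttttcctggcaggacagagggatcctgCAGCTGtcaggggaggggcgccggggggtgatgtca

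CANNTG, the core letters of the sites of basic helix-loop-helix factors, occurred at 1 place in the 110 bases of Krt8, at 1 in the 214 bases of Krt18 and at 2 in the 250 bases of Des. Among all 32851 entries of the table, 38.997%, 61.3% and 66.2% hold it in a window of the same position and length. GGGCGG was at 2 places in the Des stretch, against 32.7% of entries with any, and at none in the keratin stretches, against 11.6% and 27.6%. TATAAA on either strand was in none of the 3 stretches. The GC content was 53.6% for Krt8, 60.7% for Krt18 and 67.2% for Des. These matches describe the letters only.

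Among E9.5 cells, 16 of 42 had Krt8 (38.1%, interval 23.6 to 54.4%). Over the 42 cells its level ran from 0 through a median of 0 to 1071 CPM, with a mean of 99.8 CPM and a pooled level of 120 CPM (interval 118 to 122), and 8 cells held 100 CPM or more. It was found in 3 of 14 cells of set C (mean 23.1 CPM, or 5.49 CPM without the highest) and in 13 of 28 cells of set N530 (mean 138 CPM).

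At E12.5 there was no Krt8 count in the 20 cells of set C or in the 8 cells of set N523, the set with the highest median total. The only cell with Krt8 was that of set E12-5b, with 36 counts (69.5 CPM). At P1 there was no count in any of 41 cells, which allows a share of cells of up to 8.60% and a pooled level of up to 3 counts of 6819717, or 0.440 CPM.

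Over all cells, with that of set E12-5b, mean Krt8 was 41.6-fold lower at E12.5 than at E9.5. Pooled Krt8 was at least 74.95-fold lower at E12.5 than at E9.5 within set C, and at least 1751-fold lower in set N523 than in set N530. The 8 cells of set N523 without a count still allow a share of cells of up to 36.9%. One cell held 126 of the 153 Krt8 counts of set C at E9.5 (82.4%), and without it the limit within set C was 14.5-fold. Over all cells, pooled Krt8 was at least 273-fold lower at P1 than at E9.5. Against set C alone, the set of all P1 cells, the limit was 62.2-fold, and 12.1-fold without the same cell. The E9.5 median was also 0, so the cells of the larger sets at E12.5, all at 0, overlapped with the E9.5 cells without Krt8. GENCODE lists a processed pseudogene, Krt8-ps, which has no row of its own in the table, so reads shared with it could not be separated, nor could those of the lincRNA Gm36026, which overlaps the start of Krt8 on the opposite strand, since the authors' libraries are not stated to mark strand.

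Krt18, the type I partner, was also lower after E9.5, but was still found in a few cells of both larger sets at E12.5. It had counts in 25 of the 42 E9.5 cells (59.5%, interval 43.3 to 74.4%), with a median of 5.57 CPM, a highest value of 589 CPM and a mean of 83.8 CPM. It was in 9 of 14 cells of set C and 16 of 28 cells of the deeper set N530, with means of 128 and 61.9 CPM, and at an equal depth of 100000 counts per cell the expected shares were 64.2% and 39.6%.

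Of the 29 E12.5 cells, 6 had Krt18 (20.7%, interval 7.99 to 39.7%), with values of 334 CPM in the cell of set E12-5b, 227, 65.0, 32.6 and 16.6 CPM in 4 cells of set C, and 106 CPM in 1 cell of set N523. At P1 it was found in 1 of 41 cells, at 6 counts (37.1 CPM). The ranges of the time points overlapped in these few cells, while most cells at E12.5 and P1 were at 0.

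The log2 ratio of Krt18 was -1.64 ± 0.64 (SD, 4 combinations) for E12.5 to E9.5, -4.89 ± 0.26 (SD, 2 combinations) for P1 to E12.5 and -6.53 ± 0.74 (SD, 2 combinations) for P1 to E9.5, and all 3 passed the 2-fold rule. Without the cell of set E12-5b the first became -2.39. Both are larger than the SD between naming sets. Within set C alone the E12.5 to E9.5 ratio was -2.90, or -4.41 without its highest E12.5 cell. The P1 to E12.5 ratio was -4.24 against set C and -3.87 against set N523, neither of which holds the cell of set E12-5b. Its value over all cells, -4.89, lies outside both. The P1 to E12.5 call was lost when the highest cell of each time point was left out.

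The pair did not always share a cell. Of the 30 E9.5 cells with either keratin, 11 had both, 14 had Krt18 without Krt8 and 5 had Krt8 without Krt18, the last all in set N530. The 2 cells with the most keratin, both of set N530, had Krt8 at 1071 and 972 CPM and no Krt18 count among totals of 2520869 and 2633936, and the cell with the most Krt18 (589 CPM) had no Krt8 count. A transcript can be missed in capture, and how often was not measured. At E12.5 the cell of set E12-5b had both keratins and the other 5 had Krt18 alone.

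Almost all keratin-bearing cells carried cardiomyocyte genes. Of the 30 cells at E9.5, 28 had a cardiomyocyte marker sum of 10000 CPM or more, with a median of 82447 CPM, and the 6 cells at E12.5 ran from 40270 to 64993 CPM. Epicardial genes, which mark a keratin-bearing mesothelium, were above 0 in 15 of the 30 cells, with a median sum of 0.185 CPM and a highest of 2695 CPM. Fibroblast genes were above 0 in 15 too, with a highest sum of 4007 CPM, and endothelial genes in 16, with a highest of 1246 CPM. Their part in the keratin levels was not tested. Without the cells under 10000 CPM, keratin of either kind remained in 28 of the 38 E9.5 cells (73.7%).

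**Figure D1:**
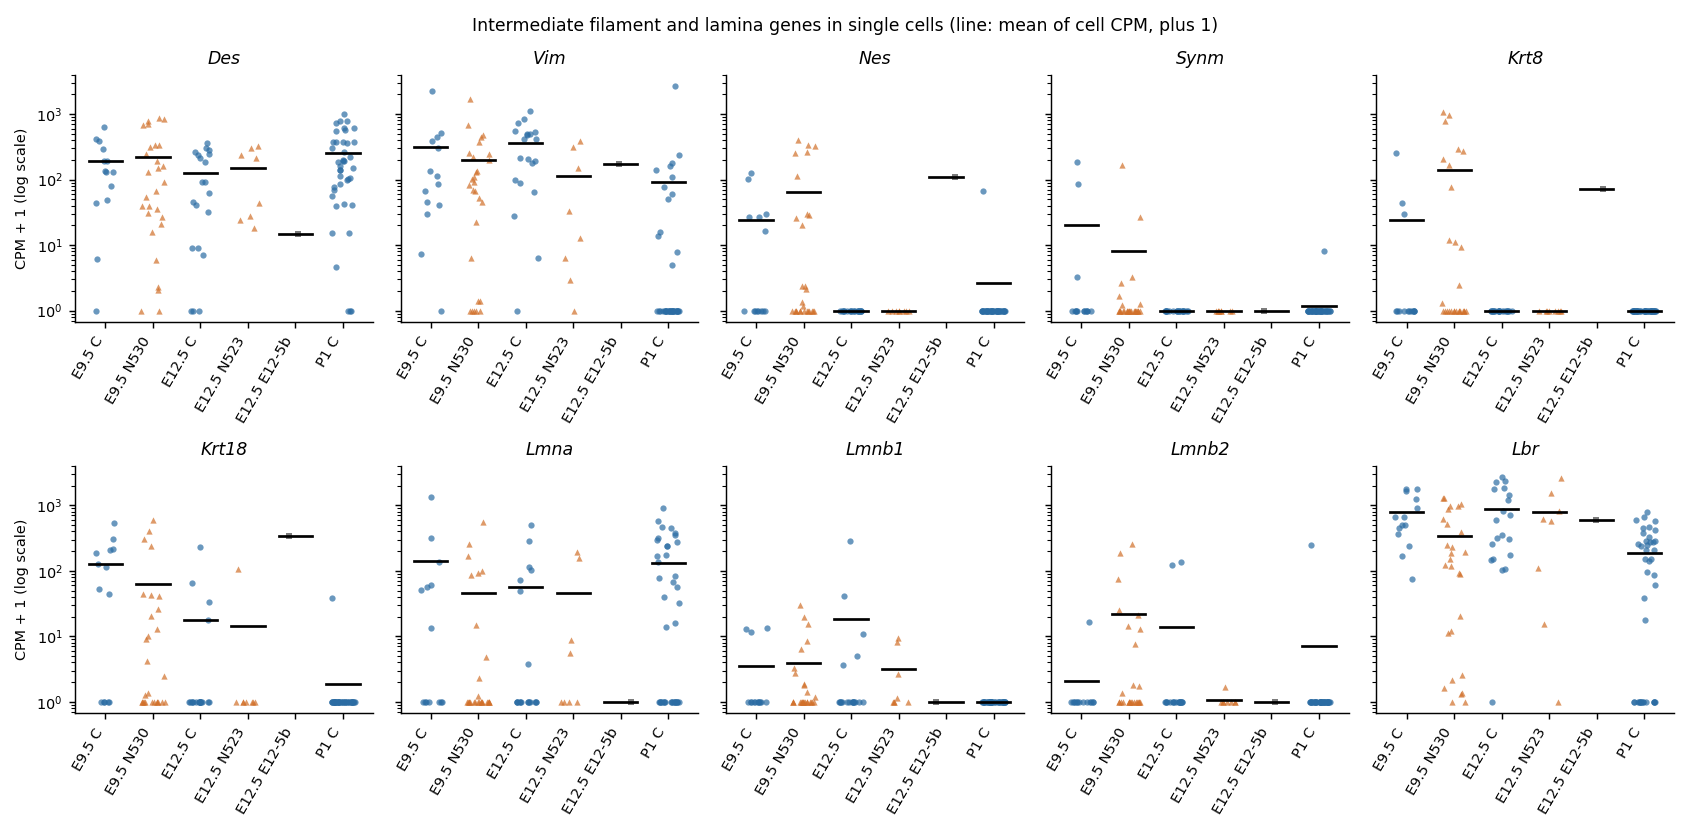
Each point is a cell, placed by time point and naming set, and its height is the CPM of the gene plus 1 on a log scale; circles are set C, triangles sets N530 and N523, the square the cell of set E12-5b, and the line the mean of cell CPM plus 1. Krt8 and Nes lie on the floor in both larger sets at E12.5, Des is on it in 3 cells at each time point, Lbr is on it in 2 cells at each embryonic time point and in 15 of the 41 at P1, and the single high Vim point at P1 is a cell at 2635 CPM.

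Des was found in most cells of every time point, with a lower mean level at E12.5. It had counts in 92.9% of E9.5 cells (39 of 42), 89.7% of E12.5 cells (26 of 29) and 92.7% of P1 cells (38 of 41), and the intervals of these shares overlapped. The E9.5 level ran from 0 through a median of 128 to 855 CPM, with a mean of 209 CPM. The E12.5 level ran from 0 through a median of 61.8 to 359 CPM (mean 126 CPM), and the P1 level from 0 through a median of 161 to 1001 CPM (mean 255 CPM). Cells of all time points overlapped over most of this range.

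The log2 ratio of Des was -0.73 ± 0.20 (SD, 4 combinations) for E12.5 to E9.5, under 2-fold but beyond the spread and called lower as TPM (-1.005), 1.02 ± 0.19 (SD, 2 combinations) for P1 to E12.5, and 0.28 ± 0.14 (SD, 2 combinations) for P1 to E9.5. The second passed the 2-fold rule by a narrow margin, at 2.02-fold, and did not without the cell of set E12-5b, where it was 0.97. The 9 cells without a Des count were 3 at each time point, 1 of them at E9.5 and 1 at P1 being cells with cardiomyocyte sums under 10000 CPM. An annotated antisense gene, Gm15179, overlaps Des, and reads of the 2 strands cannot be told apart in these libraries.

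Keratins and Des were compared as TPM, which are corrected for gene length. At E9.5 the keratin pair summed to a mean of 252 TPM against 207 TPM for Des, a log2 ratio of 0.28, with set C at 0.25 and set N530 at 0.30, and the keratin sum was above Des in 17 of 42 cells. At E12.5 the means were 40.9 and 103 TPM, a log2 ratio of -1.34, with set C at -2.27 and set N523 at -2.55, and the keratin sum was above Des in 4 of 29 cells. Without the cell of set E12-5b, at 599 TPM of keratin and 13.6 TPM of Des, the E12.5 ratio was -2.34. At P1 the means were 1.09 and 196 TPM, a log2 ratio of -7.49, and no cell had more keratin than Des. The E9.5 near-balance was one of means: on the medians of cell TPM the E9.5 log2 ratio was -2.12, with no keratin in 12 of the 42 cells.

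Keratin and Des were also counted cell by cell. At E9.5, 29 of the 30 keratin cells also had Des, where Des was in 39 of all 42 cells, so that 10 cells had Des alone and 2 had neither. At E12.5, 5 cells had a keratin and Des, 1 a keratin alone, 21 Des alone and 2 neither. At P1, 37 cells had Des alone. Within naming sets the Spearman correlation of keratin CPM with Des CPM across cells was 0.08 over 14 cells and 0.18 over 28 cells at E9.5, values too weak to read in sparse counts.

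**Figure D2:**
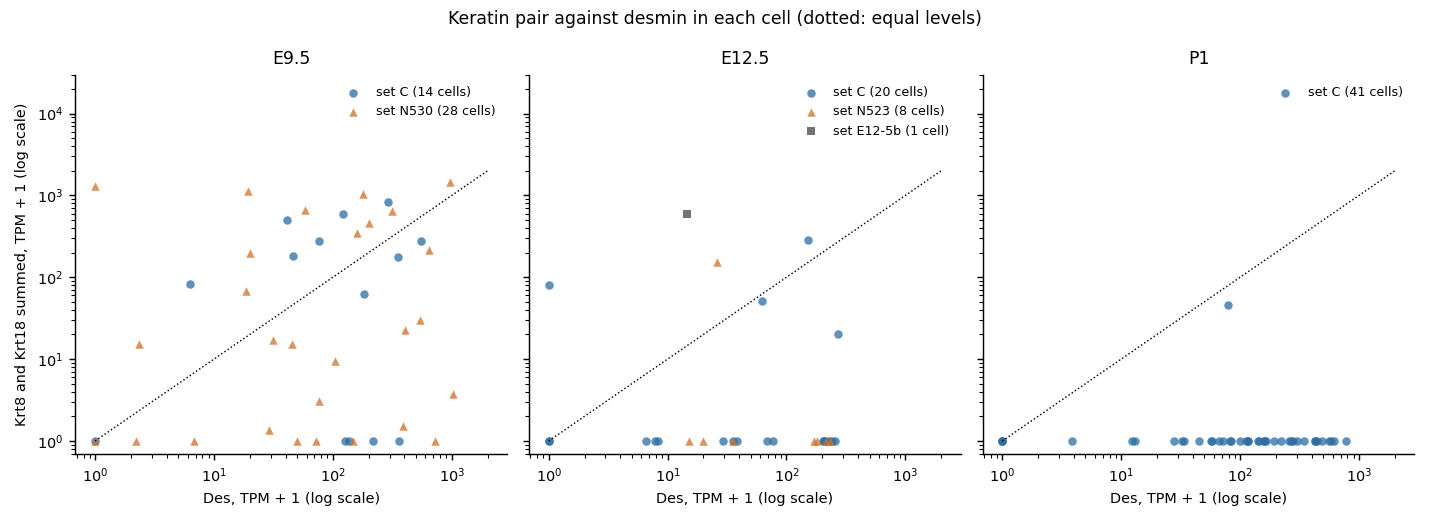
Each point is a cell, with Des TPM plus 1 on the horizontal axis and the sum of Krt8 and Krt18 TPM plus 1 on the vertical axis, both on log scales, in a panel per time point; symbols mark naming sets and the dotted line equal levels. At E9.5 17 of 42 cells lie above the line, at E12.5 4 of 29, and at P1 none of 41.

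Nes and Synm were also mostly E9.5 transcripts. Nes (chromosome 3, 87971093-87980451, plus strand) had counts in 21 of the 42 E9.5 cells (interval 34.2 to 65.8%), with a median of 0.0787 CPM, a highest value of 399 CPM and a mean of 50.5 CPM. It was in 6 of 14 cells of set C (mean 23.1 CPM, or 15.2 CPM without the highest) and 15 of 28 of set N530 (mean 64.2 CPM). At E12.5 it was at 0 in all cells of sets C and N523, and the cell of set E12-5b held 56 counts (108 CPM). At P1, 1 of 41 cells held 17 counts (66.9 CPM). Over all cells, with that of set E12-5b, mean Nes was 13.5-fold lower at E12.5 than at E9.5. Pooled Nes was at least 53.9-fold lower at E12.5 than at E9.5 within set C and at least 778-fold lower in set N523 than in set N530, or 514-fold without the set N530 cell that held 1994 of the 5331 counts. Of the 21 Nes cells at E9.5, 16 also had a keratin, where 30 of all 42 cells had one.

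Synm (chromosome 7, 67730161-67759742, minus strand) had counts in 10 of the 42 E9.5 cells (23.8%, interval 12.1 to 39.5%), with a highest value of 184 CPM and a mean of 11.1 CPM. It had no count in the 29 cells at E12.5, which allows a share of up to 11.9%, and 1 count in 1 cell at P1. Pooled Synm was at least 136-fold lower at E12.5 than at E9.5, but 1 cell of set N530 (168 CPM) held 610 of its 815 counts, and without it the limit was 35.5-fold. Within set C the limit was 68.1-fold, or 26.8-fold without the set's cell with the most counts. For set N523 against set N530 it was 98.7-fold, or 10.0-fold without the same cell of set N530. The E9.5 mean was 6.93 CPM without the cell with the highest value and 7.31 CPM without that cell of set N530, both under the level for a call, so that the call was lost without either. Ttc23 overlaps Synm on the opposite strand.

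The cell of set E12-5b stood apart from the other 28 cells at E12.5 in 3 of these genes. It was the only E12.5 cell with Krt8 or Nes, it held the highest Krt18, and its Des of 13.5 CPM was below the E12.5 median. Its cardiomyocyte marker sum was 40270 CPM, within the range at E12.5. The labels say nothing of why its title differs, and whether it belongs with the other E12.5 cells could not be checked here. Every Krt8 and Nes count at E12.5 came from it, and without it both genes were at 0 in the remaining 28 cells.

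Vim (chromosome 2, 13574311-13582826, plus strand) stayed on longer than the keratins and Nes. It had counts in 85.7% of E9.5 cells (36 of 42), 93.1% of E12.5 cells (27 of 29) and 31.7% of P1 cells (13 of 41, interval 18.1 to 48.1%). The E9.5 level ran from 0 through a median of 86.4 to 2205 CPM (mean 236 CPM) and the E12.5 level from 0 through a median of 191 to 1126 CPM (mean 283 CPM). At P1 the median was 0, the highest cell 2635 CPM and the mean 89.7 CPM. The P1 share was below both embryonic intervals, and 6 of the 41 P1 cells held 100 CPM or more, against 20 of 42 and 18 of 29.

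The naming sets did not go the same way at E12.5. Within set C the mean Vim level was 313 CPM in E9.5 cells and 356 CPM in E12.5 cells, while the deep sets went from 197 CPM (N530) to 113 CPM (N523). Without its highest cell, at 2205 CPM, the E9.5 mean of set C was 168 CPM and its log2 ratio was 1.09 in place of 0.19, and without its highest cell the mean of set N523 was 73.97 CPM. The log2 ratio for E12.5 to E9.5 was 0.26 ± 1.03 (SD, 4 combinations), well inside the spread. Those for P1 were -1.66 ± 1.17 against E12.5 and -1.39 ± 0.47 against E9.5 (SD, 2 combinations each), and both passed the 2-fold rule. The call against E12.5 was lost with set N523 alone (-0.34), and pooled CPM gave -0.58 against E12.5 and -0.84 against E9.5, both without a call.

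The highest Vim values at E9.5 and P1 belonged to cells that the cardiomyocyte markers set apart. The P1 cell at 2635 CPM supplied 78.1% of the Vim counts of that time point, and had a cardiomyocyte sum of 365 CPM, an endothelial sum of 7998 CPM and no Des count. The E9.5 cell at 2205 CPM likewise had a cardiomyocyte sum of 137 CPM, an endothelial sum of 2307 CPM and no Des count. Without the 5 cells under 10000 CPM the P1 mean was 26.0 CPM and the log2 ratio became -3.44 against E12.5 and -2.90 against E9.5. Both Vim and Des had counts in 33 of the 42 E9.5 cells, in 24 of the 29 E12.5 cells and in 11 of the 41 P1 cells. As a description, the Spearman correlation of their CPM across cells was -0.30 and 0.09 in sets C and N530 among E9.5 cells (14 and 28 cells), -0.17 and -0.60 in sets C and N523 among E12.5 cells (20 and 8 cells), and -0.08 over the 41 P1 cells.

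Shares of cells depend on depth, so they were also computed for a depth of 100000 counts per cell, which left out 3 P1 cells. At that depth the E9.5, E12.5 and P1 shares were 31.0%, 3.45% and 0% for Krt8, 47.8%, 20.0% and 2.62% for Krt18, 37.5%, 3.45% and 2.63% for Nes, and 78.2%, 85.1% and 28.7% for Vim. The order of the time points for these 4 genes was the same as in the full libraries. For Lbr it was not, since the shares became 82.3%, 92.3% and 65.5%, with E9.5 below E12.5. Those of Des became 84.5%, 83.6% and 92.9%, with P1 in place of E9.5 as the highest, and those of Lmna 33.3%, 31.7% and 51.9%. For Synm the E9.5 share came to 11.0%.

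**Figure D3:**
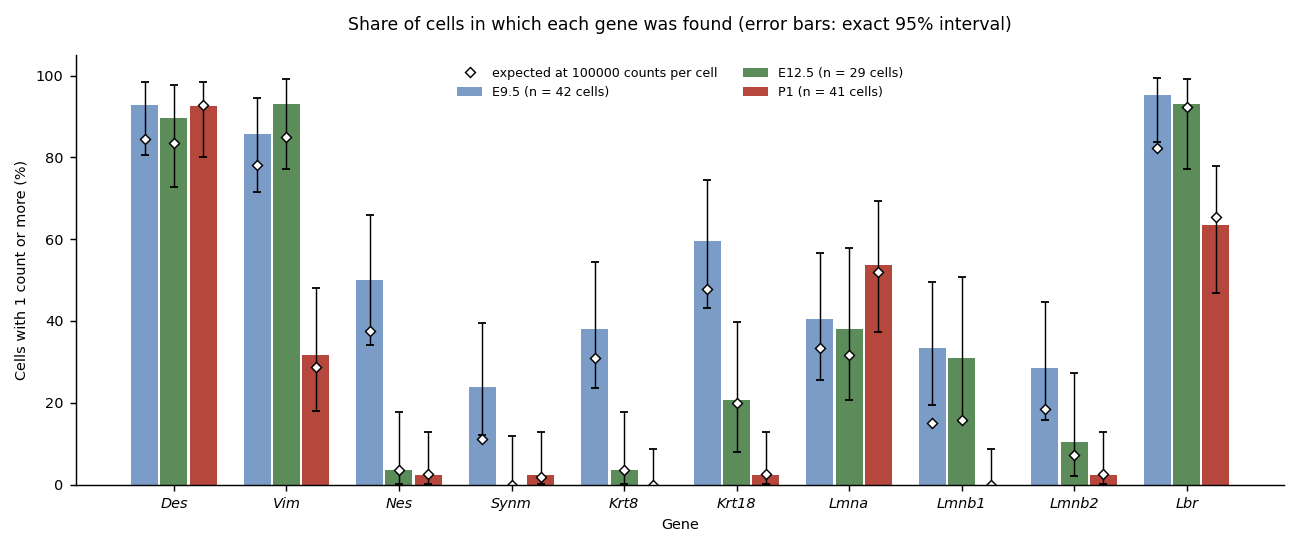
Bars show, for each gene and time point, the percentage of cells with 1 count or more, with exact 95% intervals as error bars, and open diamonds the percentage expected if every cell had 100000 counts. The shares of Nes, Krt8 and Krt18 drop after E9.5, that of Vim drops at P1, and that of Des stays near 90% at all 3 time points.

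Among the lamins, Lmna (chromosome 3, 88481148-88509932, minus strand) had counts in 40.5% of E9.5 cells (17 of 42), 37.9% of E12.5 cells (11 of 29) and 53.7% of P1 cells (22 of 41, interval 37.4 to 69.3%). The embryonic medians were 0, with a highest cell of 1352 CPM and a mean of 77.5 CPM (46.4 CPM without that cell) among E9.5 cells, and a highest of 492 CPM and a mean of 50.9 CPM among E12.5 cells. The P1 level ran from 0 through a median of 15.3 to 919 CPM, with a mean of 130 CPM. The ranges overlapped, and 14 of the P1 cells held 100 CPM or more, against 6 cells at each embryonic time point.

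Lmna was higher at P1 than at E12.5, with a log2 ratio of 1.36 ± 0.20 (SD, 2 combinations), and passed the 2-fold rule in both sets. Against E9.5 the ratio was 0.75 ± 1.15 (SD, 2 combinations), with set C at -0.12 and the set N530 combination at 1.51, so no direction holds. A single cell decided the level of set C at E9.5: the cell with a cardiomyocyte sum of 137 CPM held 463 Lmna counts (1352 CPM), 67.8% of those of its set. Without the 5 cells under 10000 CPM the P1 to E9.5 ratio was 1.14 and passed the rule, and the P1 to E12.5 ratio was 1.12.

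Lmnb1 (chromosome 18, 56707813-56753424, plus strand) was sparse and absent from the P1 counts. It had counts in 14 of the 42 E9.5 cells (33.3%, highest 28.6 CPM, mean 2.78 CPM) and in 9 of the 29 E12.5 cells (31.0%, highest 286.7 CPM, mean 12.47 CPM). In the 41 P1 cells it had no count, which allows a share of up to 8.60%. Pooled Lmnb1 was at least 9.40-fold lower at P1 than at E12.5 and at least 6.59-fold lower than at E9.5. Without the cell with the most counts at the embryonic time point (102 of 209 at E12.5, 133 of 293 at E9.5) these limits were 4.85-fold and 3.77-fold. The E12.5 level rests on 1 cell of set C with 286.7 CPM, without which the mean was 2.67 CPM and Lmnb1 fell under the level for a call. The expected embryonic shares were 15.1% and 15.8% at 100000 counts per cell, and 9.88% and 11.6% at 50000. They carry no interval, and their difference from P1 was not tested.

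Lmnb2 (chromosome 10, 80901363-80918245, minus strand) had counts in 28.6% of E9.5 cells (12 of 42), 10.3% of E12.5 cells (3 of 29) and 1 of 41 P1 cells. At E9.5, 11 of the 12 cells were of set N530 (mean 21.3 CPM) and 1 was of set C (mean 1.11 CPM). Its mean levels were 14.6, 8.81 and 6.07 CPM, and the ratio for E12.5 to E9.5, -0.73 ± 4.85 (SD, 4 combinations), had no direction. Without the highest cell of each time point the embryonic means were 8.62 and 4.37 CPM, both under the level for a call, and the P1 mean came from 1 cell at 249 CPM.

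Of the 2 lamins set against each other as TPM, Lmna took most of the sum at each time point. Among E9.5 cells Lmna made up 96.3% of Lmna plus Lmnb1 (98.2% for set C, 93.5% for set N530), among E12.5 cells 77.6% (73.6% for set C, 94.3% for set N523), and among P1 cells 100%. One cell of set C held 77.997% of the Lmnb1 TPM at E12.5, and without it the share of Lmna was 94.0% among E12.5 cells and 93.9% in set C. In cells, Lmna was above Lmnb1 in 14 and below it in 10 at E9.5, above in 10 and below in 7 at E12.5, and above in 22 and below in none at P1. The remaining cells, 18, 12 and 19, had neither transcript, and there the 2 could not be compared at this depth. A B-type lamin of either kind was found in 21 of 42, 11 of 29 and 1 of 41 cells.

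Lbr (chromosome 1, 181815315-181842401, minus strand) was the most abundant lamina transcript. It had counts in 95.2% of E9.5 cells (40 of 42), 93.1% of E12.5 cells (27 of 29) and 63.4% of P1 cells (26 of 41, interval 46.9 to 77.9%). The E9.5 level ran from 0 through a median of 245 to 1782 CPM (mean 487 CPM) and the E12.5 level from 0 through a median of 599 to 2696 CPM (mean 844 CPM). The P1 level ran from 0 through a median of 142.5 to 783 CPM (mean 187 CPM). The highest P1 cell was below the E12.5 mean, although the ranges overlapped at the low end.

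The log2 ratio of Lbr was -2.18 ± 0.11 (SD, 2 combinations) for P1 to E12.5. For P1 to E9.5 it was -1.38 ± 0.86 (SD, 2 combinations), -2.07 from set C and -0.85 from set N530, and it was called over all cells but not against set N530 alone or as pooled CPM (-0.83). For E12.5 to E9.5 it was 0.79 ± 0.71 (SD, 4 combinations), under 2-fold, with all 4 combinations above 0 but the lowest at 0.00908. Without the highest E12.5 cell of set C the ratio within set C was -0.00635 in place of 0.16, so the shared direction rests on 1 cell. The E9.5 sets themselves differed, at means of 785 CPM in set C and 337 CPM in set N530.

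As TPM, the log2 ratio of the 3 lamins together to Lbr was -2.22, -3.49 and -0.30 in time order, and Lbr made up 82.4%, 91.8% and 55.1% of the summed Lbr and lamin TPM. Without the cells under 10000 CPM these shares were 86.5%, 91.8% and 59.8%. Lbr was found without any lamin in 13, 9 and 11 cells.

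**Figure D4:**
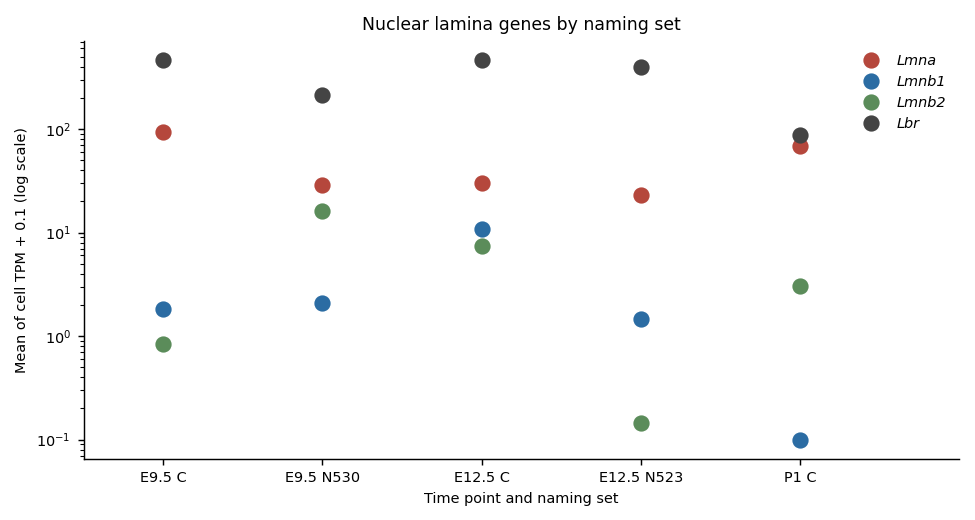
Points give the mean over cells of TPM plus 0.1, on a log scale, for Lmna, Lmnb1, Lmnb2 and Lbr in each naming set of 6 or more cells. Lbr is highest in every set, and Lmna is near it only at P1, at 68.3 against 87.5 TPM, where Lmnb1 is at 0.

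The order of the 10 genes by mean TPM also turned over. At E9.5 it ran Lbr 295, Vim 280, Des 207, Krt18 128, Krt8 124 and Lmna 50.2 TPM, with Nes, Lmnb2, Synm and Lmnb1 between 18.3 and 1.92 TPM. The first 3 changed places between naming sets, as did the keratins, so neighbours among them do not differ beyond the spread. At E12.5 Lbr (445 TPM), Vim (287 TPM) and Des (103 TPM) led. At P1 Des was first at 196 TPM, before Vim (99.6 TPM, mostly from 1 cell), Lbr (87.5 TPM) and Lmna (68.3 TPM), and the other 6 were under 3 TPM. The median number of the 10 genes found in a cell was 5.5, 4 and 3 in time order.

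Counted over the 10 genes, 0 were higher and 4 lower at E12.5 than at E9.5 (Nes, Synm, Krt8 and Krt18), where 9.07% of the 9109 genes tested were higher and 17.9% lower. At P1 against E12.5, 6 of the 10 could be called and all 6 were: Des and Lmna were higher and Vim, Krt18, Lmnb1 and Lbr lower, where 18.6% of all genes tested were higher and 23.5% lower. At P1 against E9.5, 9 could be called, with 0 higher and 6 lower (Vim, Nes, Synm, Krt8, Krt18 and Lbr), where 18.4% of genes were higher and 35.5% lower. Of all calls at E12.5 against E9.5, 33.6% were higher, and with TMM scaling factors 55.2% were. Then Lmnb1 and Lbr were called higher and the same 4 genes lower. Of all calls at P1 against E12.5, 44.2% were higher, 34.4% with TMM factors and 51.96% as pooled CPM. The median log2 ratio of the tested members was -0.73, -1.92 and -1.39 in the 3 comparisons, beside -0.17, -0.37 and -0.64 over all genes tested. Members under 10 CPM at both time points do not enter these counts, and a P1 library of lower depth can miss a transcript that an embryonic one holds. Fewer transcripts per cell and a lower capture per cell cannot be told apart either.

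**Figure D5:**
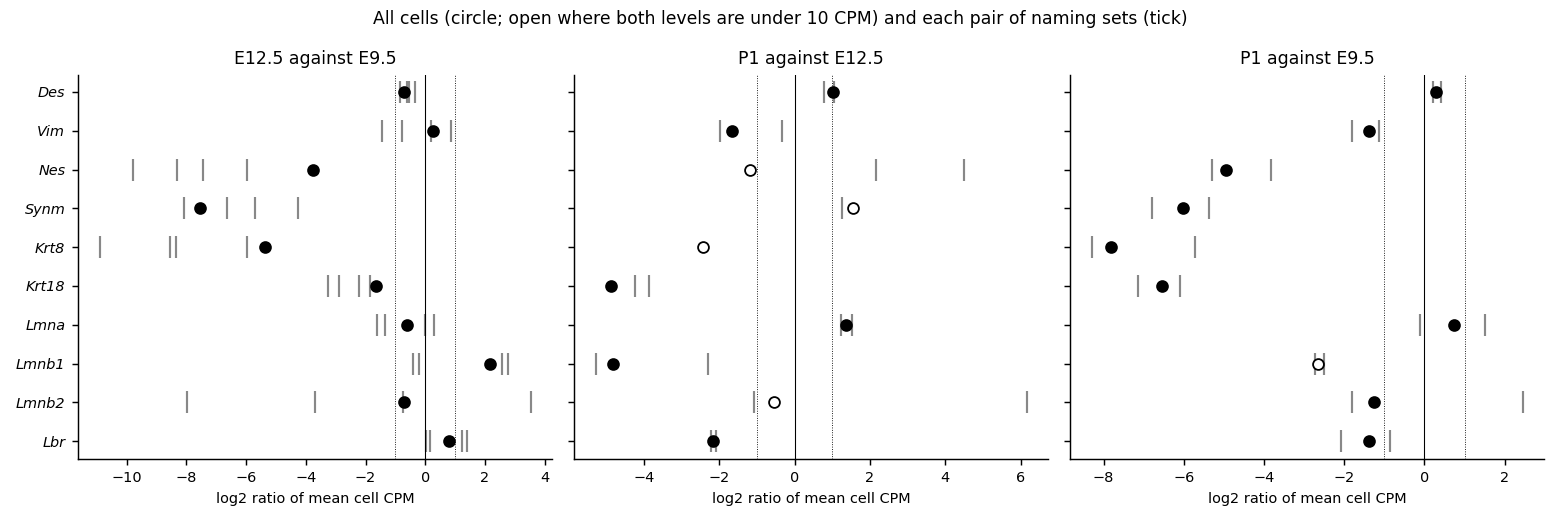
For each gene, the circle is the log2 ratio of mean cell CPM over all cells, open where both levels are under 10 CPM. The grey ticks are the ratios of each pair of naming sets, the solid line marks 0 and the dotted lines 2-fold. A time point or set without a count was set to 3 counts of its total. Such points set a mean of cell CPM against a pooled floor, so they differ from the pooled limits in the text. For Krt8, Krt18 and Nes the circle of E12.5 against E9.5 lies to the right of every tick because the cell of set E12-5b belongs to none of the sets compared. The Krt18 circle of P1 against E12.5, at -4.89, lies to the left of its ticks at -4.24 and -3.87. The ticks of Lbr at P1 against E12.5 lie at -2.23 and -2.08, and those of Lmnb2 in E12.5 against E9.5 spread from -7.98 to 3.52.

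The rest of the filament family was mostly at 0. Of 18 other intermediate filament genes, among them keratins of other epithelia, Gfap, peripherin and the neurofilaments, 8 had a count among E9.5 cells, 6 among E12.5 cells and only Krt10 among P1 cells. Krt19, a type I keratin of simple epithelia, had counts in 12 E9.5 cells (mean 44.5 CPM), in 7 E12.5 cells (22.6 CPM) and in no P1 cell. It was 1 of the 2 genes of the list tested at P1 against E12.5, where 1 was lower and 0 higher, and the only one tested against E9.5, where it was lower too; 23.5% and 35.5% of all genes tested were lower there. Krt10 had 5.01, 13.3 and 8.31 CPM and was not called. At E12.5 against E9.5 neither of the 2 was called.

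The linkers and chaperones listed here encode proteins that anchor filaments to junctions or shield them. Of these 13 linkers and chaperones, 11 could be tested in each comparison, and 1 was higher and 2 lower at E12.5 than at E9.5, 4 higher and 0 lower at P1 than at E12.5, and 3 higher and 1 lower at P1 than at E9.5. Over all genes tested, 9.07% were higher and 17.9% lower in the first comparison, 18.6% and 23.5% in the second and 18.4% and 35.5% in the third. Plectin (Plec), the cytolinker of desmin and keratin filaments, had 163, 357 and 557 CPM, and was higher in both later groups than at E9.5. Desmoplakin (Dsp), which ties desmin to desmosomes, had 595, 316 and 751 CPM, plakophilin-2 (Pkp2) 185, 55.2 and 112 CPM, and Bag3, a chaperone partner in Z-disc upkeep, 53.1, 10.2 and 55.9 CPM. These 3 were higher at P1 than at E12.5, and Bag3 was also lower at E12.5 than at E9.5. Epiplakin (Eppk1), at 0.227, 19.2 and 40.2 CPM, was higher at P1 than at both earlier time points. Dystonin (Dst) had 93.0, 123 and 210 CPM and was higher at P1 than at E9.5. Macf1, a linker of actin and microtubules, had 857, 385 and 418 CPM and was lower at E12.5 than at E9.5 and at P1 than at E9.5. Cryab, the small heat shock protein that binds desmin, was at 715, 1212 and 980 CPM and was not called.

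The partners of the lamina listed here sit in the nuclear envelope or bind chromatin beside it. Of these 15 genes, 14, 12 and 14 could be tested, with 0 higher and 2 lower at E12.5 than at E9.5, 1 higher and 5 lower at P1 than at E12.5, and 0 higher and 7 lower at P1 than at E9.5. Of all genes tested, 17.9%, 23.5% and 35.5% were lower in these comparisons. The median log2 ratios of the list were -0.22, -1.20 and -1.57, beside -0.17, -0.37 and -0.64 over all genes tested. The heterochromatin proteins that Lbr binds were among them: Cbx5 (HP1α) had 1719, 2208 and 423 CPM, Cbx3 (HP1γ) 2051, 3876 and 1306 CPM, and Cbx1 (HP1β) 77.8, 51.3 and 11.0 CPM, and all 3 were lower at P1 than at E12.5. Emerin (Emd), a lamin A partner of the inner membrane, had 15.6, 25.4 and 2.35 CPM and was lower at P1 than at either embryonic time point, as was torsin-1A (Tor1a), at 40.5, 19.1 and 5.82 CPM. Sun1, which joins the lamina to the cytoskeleton, had 25.4, 15.4 and 1.22 CPM and was lower at P1 than at E9.5. Nesprin-1 (Syne1), on the outer side of that bridge, had 125, 26.8 and 57.8 CPM and was the 1 gene higher at P1 than at E12.5. Banf1, which links chromatin to the lamina, was at 251, 361 and 236 CPM and was not called.

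Of 6 genes for the maturation of prelamins, all tested, 1 was higher and 0 lower at E12.5 than at E9.5, 1 higher and 2 lower at P1 than at E12.5, and 2 higher and 1 lower at P1 than at E9.5. These counts lie near the shares over all genes tested, of which 9.07%, 18.6% and 18.4% were higher and 17.9%, 23.5% and 35.5% lower. The subunits of farnesyltransferase differed: Fnta had 34.6, 38.04 and 70.5 CPM and was higher at P1 than at E9.5, while Fntb had 11.1, 64.7 and 10.5 CPM and was higher at E12.5 than at either other time point. Rce1, which cuts the farnesylated tail, had 33.1, 20.6 and 3.75 CPM and was lower at P1 than at both earlier time points. The protease Zmpste24, which trims prelamin A, had 25.6, 9.55 and 16.1 CPM and was not called.

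For comparison with the nucleus of dividing cells, 12 mitosis genes summed to means of 2424, 2052 and 72.5 CPM in time order, and 11 of 12 were lower at P1 than at E12.5 and 12 of 12 lower than at E9.5, where 23.5% and 35.5% of all genes tested were lower. Across cells within the sets, the Spearman correlation of Lmnb1 with this sum was 0.21 and -0.01 at E9.5 (14 and 28 cells) and 0.40 and 0.57 at E12.5 (20 and 8 cells), and it rests on 3, 11, 5 and 4 cells with a Lmnb1 count. Genes most like Des and Vim were ranked over the 4 embryonic naming sets among 4916 genes found in 25% or more of the cells of each. Among the highest mean correlations with Des were those of D11Wsu99e (0.54), Ndufs6 (0.48), Uqcr10 (0.46) and Dnm2 (0.45), and the highest with Vim were those of Aprt (0.50), Mdk (0.49), Ddx5 (0.47), Herc2 (0.46) and Wls (0.46). These are among the highest of 4916 values in sets as small as 8 cells and are given as a description. Krt8 and Lmnb1 were found in too few cells to be ranked.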

How the data were processed

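Counts of reads per gene symbol in 123 single cells were deposited by the authors, who mapped with OLego and counted with featureCounts. The authors also deposited TPM values, on a linear scale, whose gene lengths are not given in the sources used here. The submitters' processing notes name GRCm38 (mm10), and coordinates and promoters come from RefSeq tables of that build. Overlaps between genes were read from GENCODE. The genes and lists were chosen with earlier results of these data known.

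The 112 cells in which at least 2000 genes had a count were used, so 11 P1 cells did not enter. CPM are counts over the cell's total. Levels are means of cell CPM; pooled CPM are summed counts over summed totals. Levels between genes were compared as TPM only. A group without counts was set to 3 counts of its total. Shares at 100000 counts are hypergeometric expectations. Named genes were the 10, list genes found in 25% or more of the cells of a time point, and the 5 most like Des and Vim, of which 1 is not reported here. No test between time points was possible with 1 sample each. Depths, intervals and thresholds are given with the results. TMM factors came from edgeR 4.0.16, all else from Python 3.11.15 with scipy 1.17.1 and pandas 2.3.3, and the ratio rule was tested on simulated counts. Of 16 lamina partners, Syne3, and of 9 erythroid genes, Hbb-bs and Hbb-bt have no row in the table. Alternatives were other cell filters, sets, averages, scalings and fold limits; leaving out the cell of set E12-5b, the cell with the most counts behind a lower limit, each of the 2 highest Synm cells, the cell with the most Lmnb1, or the highest cell of a set in a ratio within sets was added after the data were seen.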

Additional observations from a re-analysis of the deposited data

Results flagged for a closer look

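In 3 genes the change from E9.5 to E12.5 had opposite signs in set C and in the deep sets N530 and N523, and the difference was not tested. For Vim the log2 ratio was 0.19 in set C and -0.80 in the deep sets, a difference of 0.98. Without the E9.5 cell of set C at 2205 CPM, which held 46.7% of the Vim counts of that set and had a cardiomyocyte sum of 137 CPM, the set C ratio was 1.09. For Lmnb1 it was 2.77 and -0.41, a difference of 3.18. One E12.5 cell held 102 of the 124 Lmnb1 counts of set C, and without it the set C ratio was 0.26. Without the highest E9.5 cell of set N530 the deep ratio was 0.16, of the same sign as set C. For Lmnb2 it was 3.52 and -7.98, a difference of 11.5, with counts in only 1 cell of set C at E9.5 and 1 cell of set N523. Without the highest E12.5 cell of set C its ratio was 2.53.

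The 11 P1 cells left out for having under 2000 genes held counts of 4 of the genes above the 3 counts that a count of 0 allows. Des had 204 counts in 6 of these cells, Lmna 38 in 2, Lbr 38 in 3 and Vim 12 in 2. Nes, Synm, Krt8, Krt18, Lmnb1 and Lmnb2 had none there.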

How the results depend on the processing

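Member calls were recomputed under 15 other settings, member ratios under 13 and shares of cells under 2. The gene list counts and the correlations were not recomputed, and the counts of cells with a pair of genes were, without cells low in cardiomyocyte markers (at E9.5, keratin with Des in 27 and both keratins in 11 of 38 cells). Of 314 member ratios, 225 moved by less than the SD between naming sets and no called one changed sign. Of 60 shares, 15 left their interval. The falls of Nes, Krt8 and Krt18 after E9.5 were called under every setting except the median and log averages, under which these genes were below 10 CPM, and, for Krt18 at E12.5, 4-fold. Lbr was lower at P1 than at E12.5 under all 15. The falls of Synm after E9.5 and of Lmnb1 at P1 kept their call under 8 of the 15, and Des was called lower at E12.5 than at E9.5 as TPM and at 1.5-fold.

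Members higher at E12.5 than at E9.5, 0 as reported, were 2 in set C only, 1 in the deep sets, 2 with TMM factors and 1 at 1.5-fold. Members lower there, 4 as reported, were 0 on medians and 0 on log averages. Other members were called lower there in set C only and without titles ending in no (Lmna), as TPM and at 1.5-fold (Des), and in the deep sets (Lmnb2). Members higher at P1 than at E12.5, 2 as reported, were 1 at 3000 genes, without titles ending in no, in the deep sets, without the E12-5b cell, as pooled CPM, as TPM and with TMM factors (Lmna remained, Des did not), and 0 at 4-fold. Members lower there, 4 as reported, were 2 in the deep sets, without each gene's highest cell, as pooled CPM, on medians and on log averages. Members higher at P1 than at E9.5, 0 as reported, were 1 (Lmna) without cells low in cardiomyocyte markers, in the deep sets, without each gene's highest cell, as pooled CPM, on medians and on log averages. Members lower there, 6 as reported, were 3 as pooled CPM, 1 on medians and 2 on log averages.

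The keratin to desmin log2 ratio at E9.5 was 0.0709 at 3000 genes, 0.32 without titles ending in no, 0.25 in set C, 0.0766 with counts per length summed and, reversed, -2.12 on medians. At E12.5 it was -1.06 without titles ending in no, -2.27 in set C, -2.55 in the deep sets, -2.34 without the E12-5b cell, -2.21 without each gene's highest cell and -2.72 with counts per length summed; medians gave no value at E12.5 and P1. At P1 it was -6.23 at 3000 genes. The Lmna percent at E12.5 was 94.3 in the deep sets. TMM factors moved the median of all genes by 0.43, -0.26 and 0.17 log2 units in the 3 comparisons, and the share of calls that were higher at E12.5 than at E9.5 from 33.6% to 55.2%. Those at P1 against E12.5 were 34.4% with TMM factors, from 44.2%. Depth limits P1 most, where 1 sample of 41 shallow cells cannot show Krt8 or Lmnb1 under 0.440 pooled CPM. No paired analysis was possible because no groups share replicate numbers that mark a common animal, and no result comes from a test.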

Other observations

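Lbr was ranked by the same measure as Des and Vim, a choice made after its values were seen. The genes with the highest mean Spearman correlation of CPM with Lbr over the 4 embryonic naming sets were Prc1 (0.55), Odf2 (0.54), Ccnb1 (0.51), Smc4 (0.50) and Spc25 (0.50). Prc1, Ccnb1, Smc4 and Spc25 are known for work in mitosis. The correlation of Lbr with the summed mitosis genes was 0.39 over the 14 cells of set C and -0.10 over the 28 cells of set N530 at E9.5, 0.61 over 20 and 0.55 over 8 cells at E12.5 and 0.42 over 41 cells at P1. In set N523 the correlation of Lbr with the cell's total count was -0.62, and in the other sets it lay between -0.21 and 0.13. The labels do not say whether cells of a set share a library preparation, and the part of depth was not tested.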
